A study of Mus musculus with 2 samples.

Results

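The Dppa genes (developmental pluripotency-associated genes) Dppa2, Dppa4, Dppa3 and Dppa5a were followed in mouse embryoid bodies, clusters of embryonic stem cells grown in suspension as they start to differentiate. They were found by symbol in the deposited feature lists, and all 4 members, of 33670 gene symbols, were present in both libraries. The cells came from J1 embryonic stem cells, a male line. Embryoid bodies received dTAG13 for 2 days in 1 library and DMSO, the solvent, for 2 days in the other, the control. dTAG13 is a degrader: it links a protein carrying the FKBP12 F36V tag with an E3 ubiquitin ligase, and the tagged protein is lost. Neither the tagged protein nor whether the cells are 1 clone is given in the labels, and the series title names Tex10. Each condition was 1 library, so no difference between the conditions has a replicate check and no p-value is given.

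Dppa2 and Dppa4 are neighbouring genes whose products share a SAP DNA-binding domain and act together on chromatin. In mouse embryonic stem cells they are known to keep bivalent developmental promoters open to activation and to act upstream of Dux and the Zscan4 genes, which mark a rare state resembling the 2-cell embryo. Dppa3, also called Stella or PGC7, binds Uhrf1 and protects the early embryo's genome from changes in DNA methylation, and its mRNA is known to vary from cell to cell in stem cell cultures. Dppa5a, also called Esg1, encodes a KH-domain RNA-binding protein of pluripotent cells.

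After cells with fewer than 500 genes or more than 10% mitochondrial UMIs (counts of distinct tagged transcripts) were left out, the dTAG13 library held 11588 cells and 91808969 UMIs, and the DMSO library 17878 cells and 117189816 UMIs. The median cell had 7072.5 UMIs in dTAG13 and 6014 UMIs in DMSO. The libraries shared 64 cell barcodes. Tex10 mRNA was 64.7 CPM (UMIs scaled to a common library total) in dTAG13 and 81.3 CPM in DMSO, which does not check the labels, since dTAG13 acts on protein. The 9 shared pluripotency markers summed to 2544 CPM in dTAG13 and 3045 CPM in DMSO. Of 7 fibroblast feeder markers, Col3a1 and Postn had 0 UMIs in either library. The 7 summed to 86.4 CPM in dTAG13 and 28.5 CPM in DMSO. Nearly all of that was Tagln, at 85.7 CPM in dTAG13 and 27.6 CPM in DMSO. All intervals below are at 95% and cover counting error only. A 3′ UMI count was not divided by transcript length, so levels are set side by side between libraries and cells for 1 gene at a time and not between genes.

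The library levels of the Dppa genes differed little between conditions. Dppa2 (ENSMUSG00000072419, chromosome 16) had 15656 UMIs, or 171 CPM, in dTAG13 and 23235 UMIs, or 198 CPM, in DMSO, a ratio of 0.860 (0.843 to 0.878). Its neighbour and partner Dppa4 (ENSMUSG00000058550, chromosome 16) had 11462 UMIs, or 125 CPM, in dTAG13 and 15361 UMIs, or 131 CPM, in DMSO, a ratio of 0.952 (0.930 to 0.976). Dppa3 (ENSMUSG00000046323, chromosome 6) had 4869 UMIs, or 53.03 CPM, in dTAG13 and 6219 UMIs, or 53.07 CPM, in DMSO, a ratio of 0.999 (0.962 to 1.04). The Dppa3 interval spanned 1, and those of Dppa2 and Dppa4 lay below it. Dppa5a (ENSMUSG00000060461, chromosome 9) had 604214 UMIs, or 6581 CPM, in dTAG13 and 851006 UMIs, or 7262 CPM, in DMSO, a ratio of 0.906 (0.903 to 0.909). Dppa5a therefore supplied 0.658% of all UMIs in dTAG13 and 0.726% in DMSO.

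None of the 4 genes reached a 1.5-fold difference in either direction, against 14.2% of the 8817 genes that had 5 CPM or more in either library and were at least 1.5-fold higher in dTAG13 and 5.4% of them that were at least 1.5-fold lower. The median log2 ratio of those genes was 0.09, and 58.0% of them lay within 1.25-fold of equal levels, as all 4 Dppa genes did. Counting intervals are narrow at this depth: 83.6% of all genes measured had one that left out 1, and Dppa2, Dppa4 and Dppa5a share an interval below 1 with many of them, 2828 genes in all. Dppa1, a further gene of that name, had 5 UMIs in dTAG13 and 37 UMIs in DMSO and was not followed further.

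**Figure D1:**
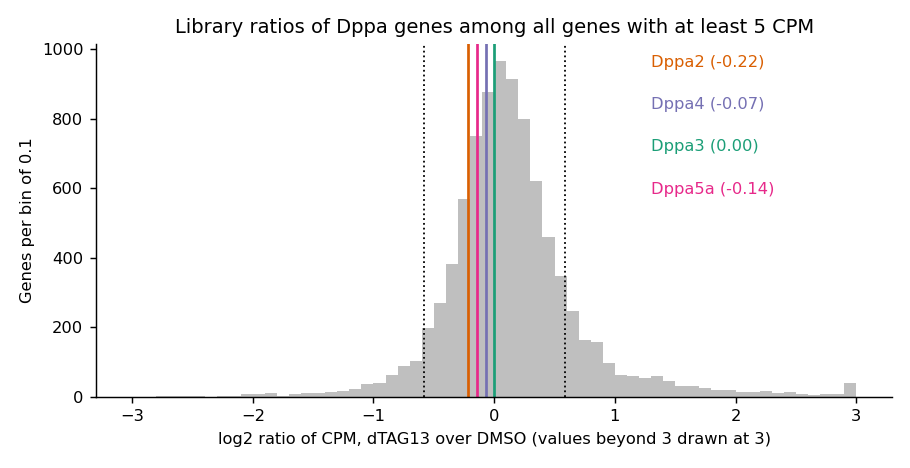
Log2 ratio of CPM, dTAG13 over DMSO (horizontal axis), for the 8817 genes at 5 CPM or more in either library, as the number of genes per bin (vertical axis). Coloured lines mark the 4 Dppa genes, all between the dotted lines at 1.5-fold lower and 1.5-fold higher and all left of the median of 0.09.

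Several genes that work with or lie beside the Dppa genes differed more than the Dppa genes themselves. Of 8 chromosomal neighbours listed, 7 were measured, of which 1 was at least 1.5-fold higher in dTAG13 and 3 were at least 1.5-fold lower. Of all genes measured, 14.2% were higher and 5.4% lower by that fold. The list does not follow position alone, and Khdc3 in it is not within 2 genes of Dppa5a in RefSeq. Nectin3, within 2 genes of Dppa4, and Ddx43, within 2 genes of Dppa5a, were left out, with ratios of 1.13 and 0.788. Morc1, the gene on the other side of Dppa2 from Dppa4 in RefSeq, was at 63.1 CPM in dTAG13 and 114 CPM in DMSO, a ratio of 0.552 (0.535 to 0.570). Dppa3 lies between Gdf3, a TGF-beta family ligand, and the pluripotency factor Nanog. Gdf3 was at 91.8 CPM in dTAG13 and 127 CPM in DMSO, and Nanog at 72.6 CPM in dTAG13 and 86.2 CPM in DMSO, ratios of 0.722 and 0.843. Apobec1, a cytidine deaminase gene beyond Gdf3, was the higher one, at 7.56 CPM in dTAG13 and 2.01 CPM in DMSO, a ratio of 3.75 (3.23 to 4.37). Ooep, a KH-domain gene next to Dppa5a, was at 116 CPM in dTAG13 and 209 CPM in DMSO, a ratio of 0.553 (0.541 to 0.566). Khdc3, a relative of Ooep in the oocyte's subcortical maternal complex, was at 10.8 CPM in dTAG13 and 28.2 CPM in DMSO, a ratio of 0.383 (0.356 to 0.411). Of 5 KH-domain relatives of Dppa5a, 2 were measured at 5 CPM or more, and both were at least 1.5-fold lower.

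Among 11 DNA methylation genes, 10 were measured, of which 1 was at least 1.5-fold higher in dTAG13 and 3 were at least 1.5-fold lower. Their median log2 ratio was -0.20, against 0.09 over all genes measured, of which 14.2% were higher and 5.4% lower by that fold. Uhrf1, the binding partner of Dppa3 and a cofactor of maintenance methylation, was at 42.6 CPM in dTAG13 and 71.5 CPM in DMSO, a ratio of 0.595 (0.573 to 0.618). Trim28 and Zfp57, which keep methylation at imprinted loci, had ratios of 0.598 and 0.643. Dnmt3l, the cofactor of the de novo methyltransferases, was the gene that was higher, at 39.7 CPM in dTAG13 and 24.6 CPM in DMSO. The genes that Dppa2 and Dppa4 are known to act on were nearly silent over the whole libraries: of 9 present in the files, only the meiotic gene Syce1 reached 5 CPM, at 6.42 CPM in dTAG13 and 5.93 CPM in DMSO. Below that level, the 5 Zscan4 genes of the list had ratios of 2.18 to 3.83, all with intervals above 1. They are near-identical copies, so single members are uncertain. Zscan4 family UMIs were found in only 97 dTAG13 and 75 DMSO cells, and the intervals of these ratios leave out the spread between cells. Zscan4e had 401 UMIs in dTAG13 and 191 UMIs in DMSO, a ratio of 2.68 (2.25 to 3.201). Nkx2-5 went the other way, with 4 UMIs in dTAG13 and 27 UMIs in DMSO, a ratio of 0.189 (0.0481 to 0.543). The intervals of Zfp352 and Duxf3 spanned 1.

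Detection per cell was compared after every cell was thinned to 3900 UMIs, which kept 10815 dTAG13 and 16123 DMSO cells and left out 773 shallower dTAG13 and 1755 shallower DMSO cells. A Dppa2 UMI was found in 45.0% of dTAG13 cells (44.0 to 45.9) and 50.8% of DMSO cells (50.01 to 51.6). For Dppa4 the shares were 37.4% of dTAG13 and 39.0% of DMSO cells, and for Dppa3 they were 15.3% of dTAG13 and 14.6% of DMSO cells. Dppa5a was found in 99.8% of dTAG13 and 99.9% of DMSO cells. Without thinning, the shares in dTAG13 and DMSO were 63.6% and 64.7% for Dppa2, 57.4% and 53.7% for Dppa4, and 24.4% and 20.9% for Dppa3. The Dppa4 shares thus stand in opposite order with and without thinning, the thinned order being the one that follows the CPM.

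The library ratio was split into the share of cells with a UMI and the UMIs in those cells, 2 parts whose weight follows from how many UMIs of a gene a cell holds. For Dppa2, the ratio of dTAG13 to DMSO was 0.886 for the share of thinned cells with a UMI and 0.994 for the UMIs in a cell that had any. For Dppa5a, present in nearly every cell, the median was 25 UMIs in dTAG13 and 28 UMIs in DMSO per thinned cell, with quartiles of 18 and 34 UMIs in dTAG13 and 20 and 36 UMIs in DMSO. Its ratio was 0.910 for UMIs per cell. Dppa4 varied about as counting alone would make it vary, with a variance of 1.09 times the mean in dTAG13 and 1.07 times in DMSO. Dppa3 and Dppa2 were spread less evenly, and the variance of Dppa3 was 1.69 times the mean in dTAG13 and 1.84 times in DMSO. For Dppa2 it was 1.60 times the mean in dTAG13 and 1.26 times in DMSO, and the highest thinned cell held 33 Dppa2 UMIs in dTAG13 and 16 in DMSO.

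**Figure D2:**
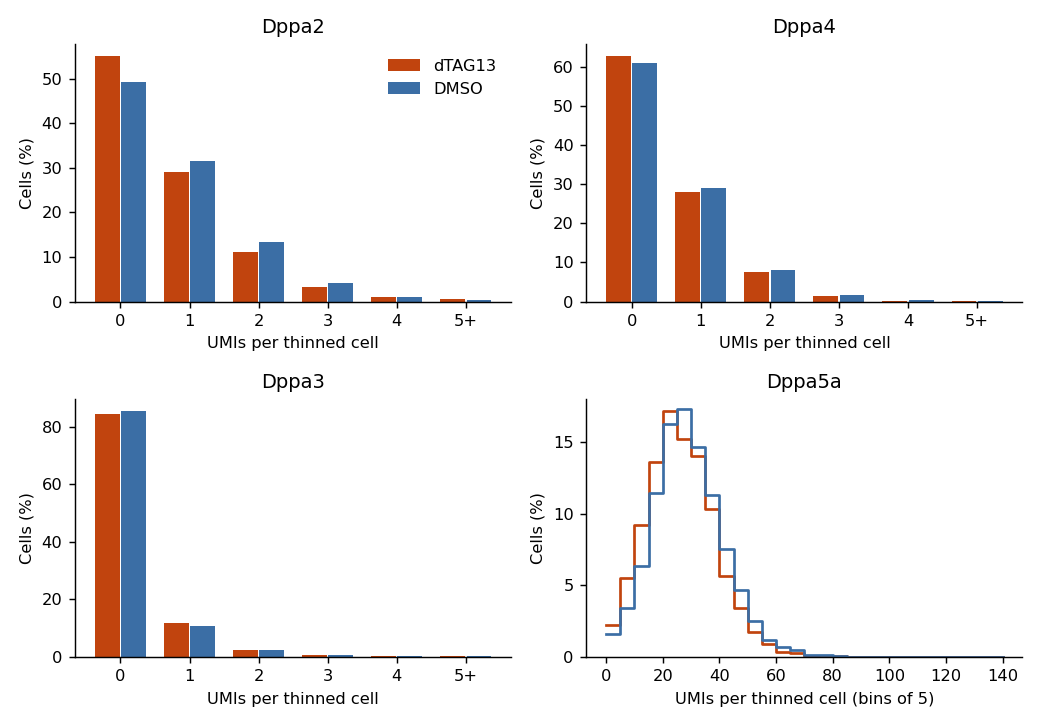
Share of thinned cells (vertical axis, %) by the UMIs of each Dppa gene they held (horizontal axis), for dTAG13 and DMSO. Dppa2, Dppa4 and Dppa3 had 0 to 2 UMIs in most cells, while Dppa5a had a median of 25 UMIs in dTAG13 and 28 in DMSO.

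Free RNA in droplets can also give a UMI. Cells below the Zscan4 call described next held Zscan4 UMIs at 6.94% of the library's rate in dTAG13 and 8.68% in DMSO. If all of these were free RNA and the Dppa genes behaved alike, free RNA would put a Dppa2 UMI into 4.67% of thinned cells in dTAG13 and 6.57% in DMSO, and a Dppa3 UMI into 1.41% in dTAG13 and 1.75% in DMSO, all far below the measured shares. For Dppa5a the same bound reached 83.5% in dTAG13 and 91.6% in DMSO, so its presence in nearly every cell is not by itself a sign of expression in each one. Most cells held more than 1 Dppa5a UMI: 98.9% of thinned dTAG13 and 99.3% of thinned DMSO cells held 3 or more. The 5th percentile was 7 UMIs in dTAG13 and 9 UMIs in DMSO. The share of cells that free RNA would bring to such counts was not tested. All 4 genes had a UMI in 2.74% of dTAG13 and 3.01% of DMSO cells, and 9 dTAG13 and 13 DMSO cells had none of them. Dppa2 and Dppa4 UMIs were found together in 18.1% of dTAG13 cells, where independent detection would give 16.8%, and in 20.5% of DMSO cells, where it would give 19.8%. The correlation of Dppa2 with Dppa4 over cells was 0.06 in dTAG13 and 0.04 in DMSO, on log(1 + UMIs), which is weak at such sparse counts.

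In cells with Zscan4 UMIs the Dppa genes differed in direction: Dppa2 and Dppa3 were higher in both libraries, and Dppa4 was not higher in either. Dppa5a was lower in dTAG13, and in summed counts its difference in DMSO was smaller and less stable. A cell was called Zscan4-positive when it had at least 5 UMIs over the 8 symbols of the Zscan4 family, whose near-identical copies make single members uncertain. The call took 38 dTAG13 cells, 0.328% (0.232 to 0.450), and 32 DMSO cells, 0.179% (0.123 to 0.253), and another 59 dTAG13 and 43 DMSO cells held 1 to 4 such UMIs. Positive cells had a median of 5902.5 UMIs in dTAG13, against 7074.5 UMIs in the other dTAG13 cells, and 4838.5 UMIs in DMSO, against 6014.5 UMIs in the other DMSO cells.

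Dppa2 was at 951 CPM in the Zscan4-positive cells and 168 CPM in the other cells of the dTAG13 library, a ratio of 5.65 (4.95 to 6.42). Its DMSO levels were 775 CPM in positive and 197 CPM in other cells, a ratio of 3.93 (3.28 to 4.66). After thinning, with depth equal, the ratios were 5.93 in dTAG13 and 4.13 in DMSO. Dppa4 was at 68.2 CPM in positive and 125 CPM in other dTAG13 cells, a ratio of 0.546 (0.318 to 0.874), from 17 UMIs in the positive cells. The DMSO levels of Dppa4 were 93.98 CPM in positive and 131 CPM in other cells, a ratio of 0.717 (0.410 to 1.16). So the 2 genes that lie side by side and whose proteins act together stood apart in the summed counts of these cells. Their intervals did not overlap in either library, but they leave out the spread between the few positive cells. How often the intervals of other genes fail to overlap was not counted.

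Dppa3 was at 205 CPM in positive and 52.6 CPM in other dTAG13 cells, a ratio of 3.89 (2.89 to 5.12). The DMSO levels of Dppa3 were 217 CPM in positive and 52.8 CPM in other cells, a ratio of 4.11 (2.89 to 5.68). Dppa5a was lower, at 4812 CPM in positive and 6586 CPM in other dTAG13 cells, a ratio of 0.731 (0.690 to 0.773). Its ratio in DMSO was 0.929 (0.876 to 0.985), from 6749 CPM in positive and 7263 CPM in other cells, and in thinned cells the DMSO ratio was 0.948 (0.875 to 1.03), which spans 1. Among genes with at least 50 CPM, 7.0% of 2601 were at least 1.5-fold higher in the positive dTAG13 cells and 17.9% were at least 1.5-fold lower. In DMSO, 6.35% of 2440 genes were at least 1.5-fold higher in the positive cells and 23.6% were at least 1.5-fold lower. Dppa2 and Dppa3 were past 1.5-fold higher in both libraries, and Dppa4 was past 1.5-fold lower in dTAG13.

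The Dppa genes were also read cell by cell. Dppa2 had a UMI in 34 of 38 positive dTAG13 cells and 26 of 32 positive DMSO cells, with 0 to 34 UMIs and a median of 4 in dTAG13, and 0 to 24 UMIs and a median of 3 in DMSO. Of these cells, 21 in dTAG13 and 15 in DMSO had more Dppa2 per UMI than 95% of the other cells of their library. The 5 positive cells with the most held 48.5% of the Dppa2 UMIs of positive cells in either library, and the highest cell held 14.3% in dTAG13 and 18.2% in DMSO. Dppa3 had a UMI in only 16 of 38 dTAG13 and 9 of 32 DMSO positive cells, and the 5 cells with the most held 74.5% of its UMIs in dTAG13 and 86.5% in DMSO. The single highest cell held 21.6% of the Dppa3 UMIs in dTAG13 and 37.8% in DMSO, and without that cell the DMSO ratio was 2.63 in place of 4.11. Dppa4 had a UMI in 14 of 38 dTAG13 and 11 of 32 DMSO positive cells, with at most 2 UMIs in a dTAG13 cell and 3 UMIs in a DMSO cell. Scaled to a common total per cell, the Dppa5a median was 30.9 in positive and 64.6 in other dTAG13 cells. In DMSO it was 52.7 in positive and 71.2 in other cells. The 5 positive cells with the most held 37.4% of the Dppa5a UMIs of positive cells in dTAG13 and 41.2% in DMSO.

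Levels were also read by the number of Zscan4 UMIs in a cell. In dTAG13, Dppa2 was at 167, 540, 590 and 1348 CPM in cells with 0, 1 to 4, 5 to 19 and 20 or more Zscan4 UMIs. DMSO cells of the same 4 classes had 197, 410, 858.5 and 638 CPM, so the highest class was not the highest there. Dppa3 was at 52.3, 112, 61.3 and 362 CPM in dTAG13 and at 52.6, 136, 160 and 311 CPM in DMSO, with 43 UMIs in the 20 dTAG13 cells and 20 UMIs in the 11 DMSO cells of the highest class. Dppa4 was at 125, 139, 92.0 and 42.1 CPM in dTAG13 and at 131, 119, 104 and 77.8 CPM in DMSO, with wide intervals in the 2 upper classes. Dppa5a was at 6588, 6142, 5122 and 4473 CPM in dTAG13 and at 7263, 6944, 8255 and 4264 CPM in DMSO. It was lowest in the highest class of either library, but in DMSO the class with 5 to 19 Zscan4 UMIs, at 8255 CPM (7717 to 8820), lay above the cells with none.

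**Figure D3:**
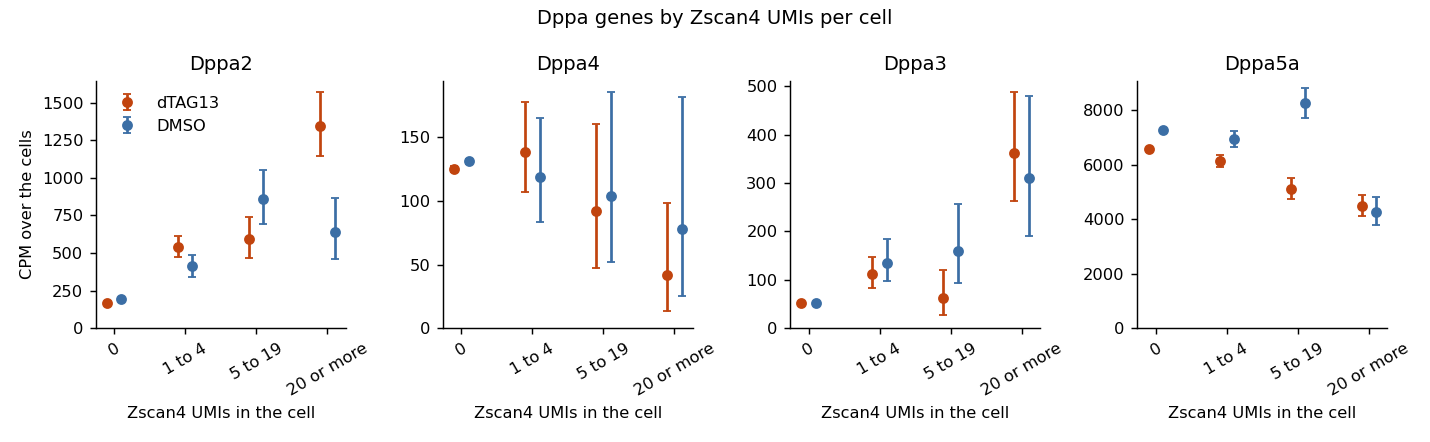
CPM of each Dppa gene (vertical axis, own scale per gene) in cells with 0, 1 to 4, 5 to 19 and 20 or more Zscan4 UMIs (horizontal axis), for dTAG13 and DMSO, with 95% Poisson intervals. Dppa2 and Dppa3 were higher in cells with 20 or more Zscan4 UMIs than in cells with none, and Dppa5a was lower.

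Other pluripotency genes in these cells give the setting. Utf1, a chromatin factor of pluripotent cells, had a ratio of positive to other cells of 0.196 (0.114 to 0.313) in dTAG13 and 0.332 (0.20 to 0.518) in DMSO. Sox2 had ratios of 0.468 in dTAG13 and 0.706 in DMSO, while Tdgf1, the Nodal co-receptor, had 1.36 in dTAG13 and 1.83 in DMSO. Of the genes beside Dppa genes, Nanog had a ratio of 1.38 (0.894 to 2.04) in dTAG13 and 2.25 (1.55 to 3.17) in DMSO. Gdf3, on the other side of Dppa3, was lower, with ratios of 0.349 (0.151 to 0.689) in dTAG13 and 0.416 (0.190 to 0.789) in DMSO. Morc1 had 0.826 (0.440 to 1.41) in dTAG13 and 0.411 (0.177 to 0.810) in DMSO, so the neighbours of Dppa3 stood on opposite sides of 1 and neither neighbour of Dppa2 was higher with it. Uhrf1 had only 16 UMIs in the positive dTAG13 cells and 10 UMIs in the positive DMSO cells, and both intervals of its ratio spanned 1.

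Within Zscan4-positive cells alone, the ratio of dTAG13 to DMSO was 1.23 (0.988 to 1.53) for Dppa2, 0.726 (0.345 to 1.54) for Dppa4 and 0.942 (0.605 to 1.48) for Dppa3, all spanning 1. For Dppa5a it was 0.713 (0.657 to 0.774), from 4812 CPM in dTAG13 and 6749 CPM in DMSO.

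Another call, chosen after its values were seen, used the Eif1ad copy family (16 symbols). At least 10 UMIs of it were found in 50 dTAG13 and 41 DMSO cells, of which 32 in dTAG13 and 26 in DMSO were Zscan4-positive, and the other 18 dTAG13 and 15 DMSO cells were examined here. Of these, 14 in dTAG13 and 8 in DMSO held Zscan4 UMIs below the call. In those cells Dppa2 was at 1191 CPM, against 167 CPM in the other dTAG13 cells, and at 664 CPM, against 197 CPM in the other DMSO cells. Their ratios were 7.14 (6.09 to 8.32) in dTAG13 and 3.37 (2.67 to 4.20) in DMSO. The Dppa3 ratio was 7.99 (6.06 to 10.4) in dTAG13 and 4.73 (3.19 to 6.77) in DMSO, while those of Dppa4, 0.975 in dTAG13 and 1.27 in DMSO, had intervals that spanned 1. Dppa5a, lower in the Zscan4-positive dTAG13 cells, was not lower here, with ratios of 1.13 (1.06 to 1.20) in dTAG13 and 0.963 (0.899 to 1.03) in DMSO. Among genes of at least 50 CPM, 12.3% in dTAG13 and 6.84% in DMSO were at least 1.5-fold higher in these cells, and 16.8% in dTAG13 and 15.8% in DMSO were at least 1.5-fold lower. Of all kept cells, 6 in dTAG13 and 2 in DMSO held 20 or more Dppa2 UMIs. All 6 of the dTAG13 cells had at least 10 Eif1ad UMIs, and 3 of these were also Zscan4-positive. In DMSO, 1 of the 2 cells had both calls. At a lower cut of 10 or more Dppa2 UMIs, only 12 of 34 dTAG13 and 4 of 15 DMSO cells had either call.

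The Dppa genes other than Dppa3 were lower in cells carrying markers of trophoblast, the lineage of the placenta. Cells with a UMI of at least 5 of 13 trophoblast markers numbered 105 in dTAG13 and 77 in DMSO, a cut set with results known. They had a median of 12606 UMIs in dTAG13 and 8223 UMIs in DMSO, above their libraries' medians. Dppa2 was at 72.6 CPM in these cells and 172 CPM in the other dTAG13 cells, a ratio of 0.422 (0.344 to 0.513). Its DMSO levels were 56.6 CPM in marker cells and 199 CPM in other cells, a ratio of 0.284 (0.202 to 0.389). The Dppa4 ratio was 0.567 (0.460 to 0.690) in dTAG13 and 0.552 (0.410 to 0.728) in DMSO, and the Dppa5a ratio was 0.751 in dTAG13 and 0.598 in DMSO.

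Dppa3 alone of the 4 was not lower there, at 64.0 CPM in marker cells and 52.9 CPM in other dTAG13 cells, a ratio of 1.21 (0.971 to 1.49). The DMSO levels of Dppa3 were 46.4 CPM in marker cells and 53.1 CPM in other cells, a ratio of 0.875 (0.598 to 1.24). With a cut of 4 markers the DMSO ratio was 1.61. The markers included Rhox6 and Rhox9, which were higher in the Dppa3-rich cells described below. Their part in the Dppa3 ratios was not tested. Pou5f1, which encodes the pluripotency factor Oct4, had ratios of 0.630 in dTAG13 and 0.464 in DMSO, and Utf1 had 0.443 in dTAG13 and 0.366 in DMSO. At least 1.5-fold lower in the marker cells were 7.15% of genes in dTAG13 and 9.14% in DMSO, and at least 1.5-fold higher were 5.11% in dTAG13 and 6.27% in DMSO. After thinning, a Dppa2 UMI was still found in 21.4% of the dTAG13 marker cells (13.9 to 30.5) and 14.1% of the DMSO ones (6.97 to 24.4).

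Cells with 2 or more UMIs of the simple keratins Krt8 and Krt18 after thinning overlapped with these in markers and numbered 378 in dTAG13 and 119 in DMSO, with another 695 dTAG13 and 756 DMSO cells just below the cut. The Dppa2 ratio of keratin-positive to other cells was 0.513 (0.430 to 0.608) in dTAG13 and 0.385 (0.269 to 0.533) in DMSO. Dppa5a had 0.633 (0.617 to 0.649) in dTAG13 and 0.650 (0.623 to 0.677) in DMSO. Dppa3 was at 20.4 CPM in keratin-positive and 53.7 CPM in other dTAG13 cells, a ratio of 0.379 (0.255 to 0.542), and its DMSO ratio of 0.784 (0.472 to 1.23) spanned 1. Dppa4 had 0.840 (0.711 to 0.985) in dTAG13 and 0.588 (0.412 to 0.815) in DMSO. Of all genes at 50 CPM or more, 8.0% in dTAG13 and 8.77% in DMSO were at least 1.5-fold lower in keratin-positive cells, and 5.5% in dTAG13 and 5.7% in DMSO were at least 1.5-fold higher.

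**Figure D4:**
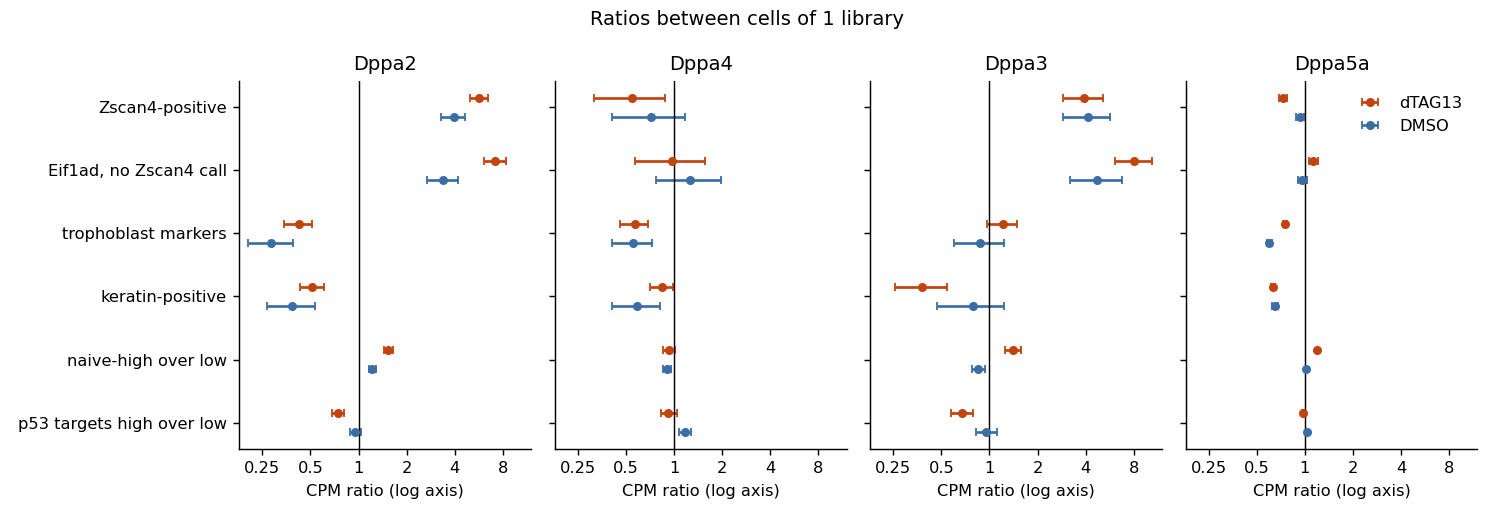
Ratio of CPM between cell groups of 1 library (horizontal log axis) for each Dppa gene, in dTAG13 and DMSO, with 95% counting intervals and a line at 1. Dppa2 ranged from 0.284 in DMSO trophoblast-marker cells to 7.14 in dTAG13 Eif1ad cells, while no Dppa4 ratio had an interval above 1 except 1.17 in the DMSO cells with high p53 target UMIs.

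Cells were next ordered by their summed UMIs of 14 naive pluripotency genes, among them Klf2, Spp1, Nanog and Tfcp2l1, after thinning, and split at 3, 5 and 7 UMIs, the quartiles over both libraries. These genes summed to 1071 CPM in dTAG13 and 1548 CPM in DMSO, and 48.2% of dTAG13 cells lay in the lowest class (0 to 3 UMIs), against 23.2% of DMSO cells. In dTAG13, Dppa2 was at 230 CPM in the top class and 149 CPM in the lowest, a ratio of 1.54 (1.44 to 1.63). Its DMSO levels were 217 CPM in the top class and 179 CPM in the lowest, a ratio of 1.22 (1.16 to 1.28). Dppa5a had ratios of 1.20 (1.18 to 1.21) in dTAG13 and 1.02 (1.01 to 1.03) in DMSO. Dppa4 was slightly lower in the top class, with ratios of 0.931 (0.858 to 1.01) in dTAG13 and 0.901 (0.848 to 0.957) in DMSO. At least 1.5-fold higher in the top class were 3.61% of genes in dTAG13 and 1.52% in DMSO, and at least 1.5-fold lower were 1.5% in dTAG13 and 0.328% in DMSO.

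Dppa3 followed the naive genes in opposite directions in the libraries. In dTAG13 it was at 65.9 CPM in the top class and 46.7 CPM in the lowest, a ratio of 1.41 (1.26 to 1.58). DMSO cells had 48.7 CPM in the top class and 57.1 CPM in the lowest, a ratio of 0.852 (0.775 to 0.938). Its equal CPM between the libraries therefore hid unequal parts. From the lowest class to the top one, the ratio of dTAG13 to DMSO was 0.818, 0.950, 1.20 and 1.35. For Dppa2 these ratios were 0.836, 0.956, 0.935 and 1.06, and for Dppa5a they were 0.844, 0.964, 0.985 and 0.992. For Dppa4 they were 0.911, 0.947, 1.01 and 0.941. For each of the 4 genes the ratio was smallest in the lowest class. The share of all genes for which this holds was not counted. For Dppa4 the interval of the lowest class, 0.858 to 0.966, overlapped that of the top class, 0.867 to 1.02. The simple keratins moved with this split: Krt18 was at 6.04 CPM in the top class and 47.6 CPM in the lowest class of dTAG13, and at 4.73 CPM in the top and 32.8 CPM in the lowest class of DMSO, and the part of other markers than Krt8 and Krt18 in the Dppa3 result was not tested. Without keratin-positive cells the Dppa3 ratio of top to lowest class was 1.36 in dTAG13 and 0.833 in DMSO.

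**Figure D5:**
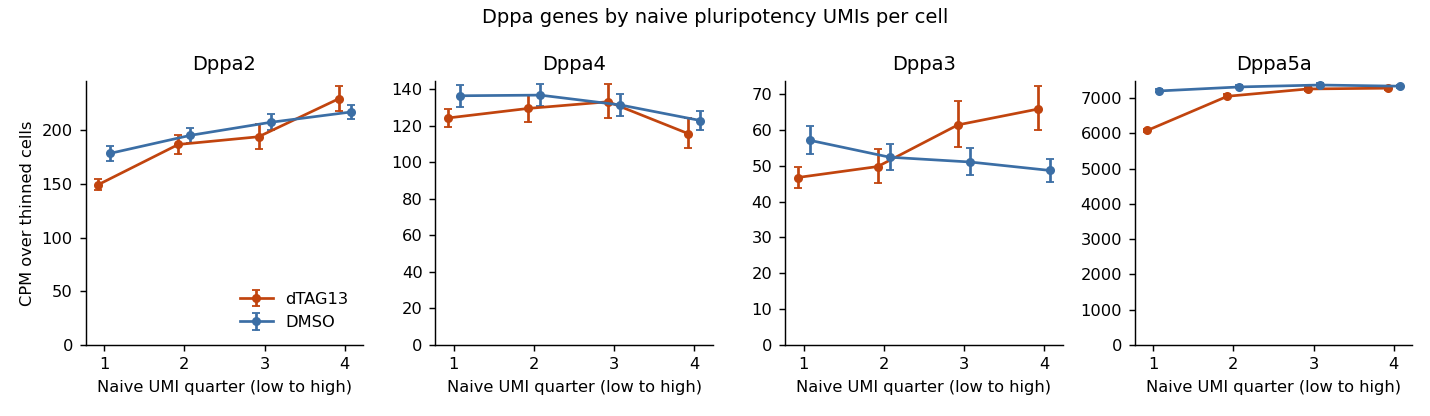
CPM of each Dppa gene (vertical axis, own scale) in thinned cells of 4 classes by summed UMIs of naive pluripotency genes (horizontal axis, low to high), for dTAG13 and DMSO, with 95% Poisson intervals. Dppa3 was higher in the top class than in the lowest in dTAG13 and lower in DMSO.

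The 19 p53 targets examined were all at least 1.5-fold higher in dTAG13, as were 14.2% of all genes measured. Cells were therefore also set apart by their summed p53 target UMIs after thinning. Above the 90th percentile of DMSO cells (5 UMIs) lay 7734 dTAG13 and 977 DMSO cells, and at or below the DMSO median (2 UMIs) lay 616 dTAG13 and 11097 DMSO cells. Within dTAG13, the ratio of high to low cells was 0.742 (0.679 to 0.812) for Dppa2, 0.672 (0.573 to 0.793) for Dppa3 and 0.923 (0.824 to 1.04) for Dppa4. Within DMSO it was 0.957 (0.887 to 1.03) for Dppa2, 0.958 (0.820 to 1.11) for Dppa3 and 1.17 (1.07 to 1.27) for Dppa4. For Dppa5a it was 0.971 (0.956 to 0.987) in dTAG13 and 1.03 (1.02 to 1.05) in DMSO. In the low cells, the ratio of dTAG13 to DMSO was 1.12 (1.03 to 1.23) for Dppa2 and 1.38 (1.17 to 1.61) for Dppa3, but 0.932 (0.917 to 0.947) for Dppa5a. In the high cells, which held most dTAG13 cells, the ratio of dTAG13 to DMSO was 0.872 (0.807 to 0.943) for Dppa2, 0.826 (0.756 to 0.904) for Dppa4, 0.969 (0.832 to 1.14) for Dppa3 and 0.876 (0.866 to 0.887) for Dppa5a. No Dppa gene passed 1.5-fold between high and low cells, where 3.54% of genes in dTAG13 and 1.43% in DMSO were at least 1.5-fold higher and 0.538% in dTAG13 and 0.123% in DMSO were at least 1.5-fold lower.

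Cells rich in Dppa3 itself were described last. After thinning, 363 dTAG13 and 594 DMSO cells held 2 or more Dppa3 UMIs, 1291 dTAG13 and 1755 DMSO cells held 1, and 9161 dTAG13 and 13774 DMSO cells held none. Against cells with none, the Dppa3-rich cells had 1.28 times the Dppa2 level in dTAG13 (1.14 to 1.43) and 1.10 times in DMSO (1.01 to 1.20). Without the Zscan4-positive and Eif1ad cells these were 1.24 in dTAG13 and 1.03 in DMSO. Dppa5a had a ratio of 1.14 in either library, and the Dppa4 intervals spanned 1. Of 2601 genes in dTAG13, 0.615% were at least 1.5-fold higher in Dppa3-rich cells and 1.23% were at least 1.5-fold lower. The shares of 2440 genes in DMSO were 0.574% higher and 1.15% lower.

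The homeobox genes Rhox6 and Rhox9 were among them in DMSO. Rhox6 was at 201 CPM in Dppa3-rich DMSO cells and 53.4 CPM in DMSO cells with no Dppa3 UMI, a ratio of 3.77 (3.41 to 4.16), and Rhox9 at 231 CPM in Dppa3-rich DMSO cells and 52.3 CPM in DMSO cells with none, a ratio of 4.41 (4.02 to 4.84). In dTAG13, where these genes were under 50 CPM, the ratios were 2.15 (1.55 to 2.92) for Rhox6 and 2.22 (1.60 to 3.01) for Rhox9. Nanog, the neighbour of Dppa3, was higher in Dppa3-rich dTAG13 cells, with a ratio of 1.57 (1.33 to 1.85), and its DMSO ratio of 1.11 (0.961 to 1.27) spanned 1. Slc2a3, a glucose transporter gene beyond Nanog, had 1.78 (1.47 to 2.14) in dTAG13 and 1.22 (1.03 to 1.43) in DMSO. Uhrf1 had 1.02 (0.776 to 1.32) in dTAG13 and 0.770 (0.642 to 0.917) in DMSO.

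The genes whose counts per cell were most like each Dppa gene were ranked by the lower of the 2 within-library correlations over 10815 dTAG13 and 16123 DMSO thinned cells, among 5170 genes. All such correlations were weak, and cells of 1 library share their depth and handling. For Dppa2 the most alike was Tdgf1, with 0.12 in dTAG13 and 0.10 in DMSO, followed by Mkrn1, G3bp2, L1td1 and Zfp990. For Dppa4 it was Utf1, with 0.09 in dTAG13 and 0.10 in DMSO, followed by L1td1, Mkrn1, Tcf15 and Tle4. For Dppa3 it was Calcoco2, with 0.17 in either library, followed by Ifitm1, Klhl13, Eif2s2 and Gpx4. For Dppa5a it was Ifitm1, with 0.16 in dTAG13 and 0.13 in DMSO, followed by its chromosomal neighbour Ooep and by Ifitm2, Ifitm3 and Prdx1. Calcoco2 itself was at 215 CPM in dTAG13 and 346 CPM in DMSO, and Ifitm1 at 432 CPM in dTAG13 and 733 CPM in DMSO. Dppa3 was at 53.03 CPM in dTAG13 and 53.07 CPM in DMSO.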

How the data were processed

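Single-cell RNA was measured in 1 dTAG13 and 1 DMSO library, made with a 10x Chromium 3′ kit per the labels' protocols. The deposited matrices hold raw UMI counts per gene and barcode, the output of Cell Ranger 8.0.1, per the file headers. Seurat 5.0.1, R 4.3.2 and mm10 appear in the submitters' processing notes. Of 33696 gene IDs, 1735 are absent from GENCODE M21, so no coordinates are given, and neighbours and chromosomes come from RefSeq. Dppa5b, Dppa5c and Dppa3-ps are annotated pseudogenes, and the counting of shared reads is not described, so Dppa5a and Dppa3 values may include them. Counts of symbols with more than 1 ID were summed. No doublets were removed. UMIs were summed and scaled to CPM, with exact Poisson, conditional binomial (ratios) and Clopper-Pearson (shares) intervals, in numpy 2.4.6, scipy 1.17.1 and pandas 2.3.3. The ratio and its interval were tested on simulated Poisson counts of whole libraries, which hold no spread between cells. Members, lists, cell groups and cuts were chosen with earlier results of these data known. Genes from a list were named for the largest ratios at 10 CPM or more, and other genes named beside a cell group were chosen after their values were seen.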

Additional observations from a re-analysis of the deposited data

Results flagged for a closer look

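Dppa3 went opposite ways with the naive pluripotency genes: top over lowest class gave 1.41 in dTAG13 and 0.852 in DMSO. Dppa5a did so, by little, with the p53 targets: cells with high over cells with low target UMIs gave 0.971 in dTAG13 and 1.03 in DMSO. Each was picked because both counting intervals left out 1 on opposite sides. With 1 library per condition the difference between the libraries was not tested, and the treatment and the library cannot be told apart.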

How the results depend on the processing

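No paired analysis was possible because each condition is 1 library, and for the same reason no replicate could be left out. None of the 4 library ratios reached 1.5-fold under 8 alternatives, and the order of the libraries changed only for Dppa3, whose ratio was near 1. Scaling to the median of gene ratios puts dTAG13 levels lower by 0.09 on the log2 scale. The ratios of dTAG13 to DMSO were then 0.806 for Dppa2, 0.893 for Dppa4, 0.937 for Dppa3 and 0.849 for Dppa5a. With that scaling the Dppa3 interval, 0.902 to 0.973, lay below 1. In thinned cells the ratios were 0.880 for Dppa2 and 0.910 for Dppa5a. With at least 20 CPM, 530 genes were at least 1.5-fold higher and 205 lower, and with no minimum 6526 were higher and 4282 lower, against 1248 higher and 476 lower at 5 CPM.

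The Zscan4 ratios kept their side of 1 in every alternative, but for Dppa5a in DMSO the interval spanned 1 with at least 2 Zscan4 UMIs, at 0.977 (0.932 to 1.02), and in thinned cells, at 0.948 (0.875 to 1.03). With at least 2 Zscan4 UMIs, the dTAG13 ratio was 4.76 for Dppa2 and 0.842 for Dppa5a, and with at least 10 the DMSO ratio was 4.70 for Dppa2 and 0.773 for Dppa5a. Without the positive cell with the most UMIs of the gene, chosen after seeing the data, the ratio was 4.93 for Dppa2 and 0.690 for Dppa5a in dTAG13, and 2.63 for Dppa3 in DMSO. Without thinning, shares of cells with a UMI in dTAG13 and DMSO were 63.6% and 64.7% for Dppa2, 57.4% and 53.7% for Dppa4, and 24.4% and 20.9% for Dppa3. The Dppa3 ratio of DMSO trophoblast-marker cells was 1.61 with a cut of 4 markers and 0.607 with 6, against 0.875 with 5. Depth limits Dppa4, with 17 UMIs in the positive dTAG13 cells and 16 in the positive DMSO cells.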
